A study of Mus musculus with 6 samples.

Results

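The transcripts described here come from imprinted genes, which are expressed mainly from the copy inherited from a single parent. A list of 42 imprinted mouse genes was set by name, and its members were found as the probe sets that the array's gene annotation assigns to those symbols. Of the 42, 38 had a probe set among the 19505 named genes, and each of the 38 had exactly 1. No probe set is named for *H19*, *Meg3*, *Rtl1* or *Snrpn*, and these 4 were not analysed here. RNA was compared between luminal mammary epithelial cells that were sorted by fluorescence for high or low green fluorescent protein, giving Sox9-GFP-high cells and Sox9-GFP-low cells, each measured on 3 arrays. All cells carried 2 transgenes: the Sox9-GFP reporter, a bacterial artificial chromosome in which *Sox9* regulatory sequence drives GFP, and C3(1)/Tag, which expresses the SV40 large T antigen, a viral oncoprotein. The mice were FVB/NJ females aged about 3 months, and cells came from glands of 3 animals. The sources used here do not say whether the glands were pooled or which animal an array number stands for, so the spread between arrays may be technical. The high and low groups are gates on a transgene reporter, with no reporter-free or Tag-free cells beside them.

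Imprinted genes lie in clusters, each controlled by a region whose DNA methylation is laid down in the germ line of either mother or father and kept in body cells. Many of them act on growth of the fetus and placenta: *Igf2* drives growth, whereas *Igf2r* and *Grb10* restrain it by removing IGF2 or by damping signals from the insulin and IGF1 receptors. In the mammary gland, signals from insulin-like growth factors support the growth and survival of epithelial cells. The arrays measured total transcript and not the allele it came from. The parental allele given for each gene below is textbook background, and for 18 of the 42 genes imprinting is known mainly in certain tissues, such as placenta or brain.

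The labelled cell type was checked first. The luminal markers *Krt8*, *Krt18* and *Epcam* lay between 14.86 and 17.70 on the log2 scale on every array, and of 8 luminal markers only *Krt19* differed, lower in Sox9-GFP-high cells by 1.65. Of 8 basal markers 1 was higher (*Krt17*, difference 2.09, and 1.43 without low array number 2), and 0 of 7 endothelial, 0 of 6 immune and 0 of 7 adipocyte markers were called. Some of these markers were bright: *Krt14* lay at 14.04 to 15.08 and *Krt17* at 10.85 to 14.71, the other basal markers at no more than 7.46. *Fabp4*, on the adipocyte list, lay at 10.16 to 13.21 (difference -1.42, limma adjusted p = 0.104), the rest of that list at no more than 5.37. *Cldn5*, on the endothelial list, lay at 7.45 on low array number 1 and at 3.61 to 4.72 on the other arrays (difference -1.19, limma adjusted p = 0.373). The rest of the endothelial list lay at no more than 5.98, the value of *Cdh5* on that same array. *Sox9* itself was higher in the high sort, at 14.22 ± 0.39 against 13.21 ± 0.34 (SD, n = 3 each; limma adjusted p = 0.0360). Array medians ranged from 5.15 to 5.21, and r across probe sets was 0.992 to 0.994 within a sort and 0.979 to 0.988 between sorts. As a guide to background, the 95th percentile of 1414 olfactory and vomeronasal receptor probe sets, genes that these cells are not known to use, was 4.68 in the high sort and 4.72 in the low sort. All values below are deposited log2 values, differences are Sox9-GFP-high minus Sox9-GFP-low, and a gene is called when its limma p-value falls below 0.05 after Benjamini-Hochberg adjustment across the 22206 probe sets.

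Of the 38 measured imprinted genes, 1 was higher in Sox9-GFP-high cells (*Sgce*) and 4 were lower (*Blcap*, *Dcn*, *Grb10* and *Gnas*), and the other 33 did not pass the test. Over all probe sets, 4.00% were called higher and 3.20% lower, so 1 of 38 higher is near the background share and 4 of 38 lower is above it. With the replicate block, which compares arrays of the same number, the same 5 genes passed, against 6.32% of all probe sets higher and 4.99% lower. The arrays of the sorts did not overlap for 3 imprinted genes that were higher and 9 that were lower, whereas 14.1% and 11.4% of all probe sets were so separated. For a single such gene an exact two-sided permutation test gives p = 0.1, below which 3 arrays per sort cannot go. The median difference was -0.11 over the imprinted genes and 0.01 over all probe sets. In sorted bulk cells, fewer cells that express a gene and less RNA per cell cannot be told apart.

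**Figure D1:**
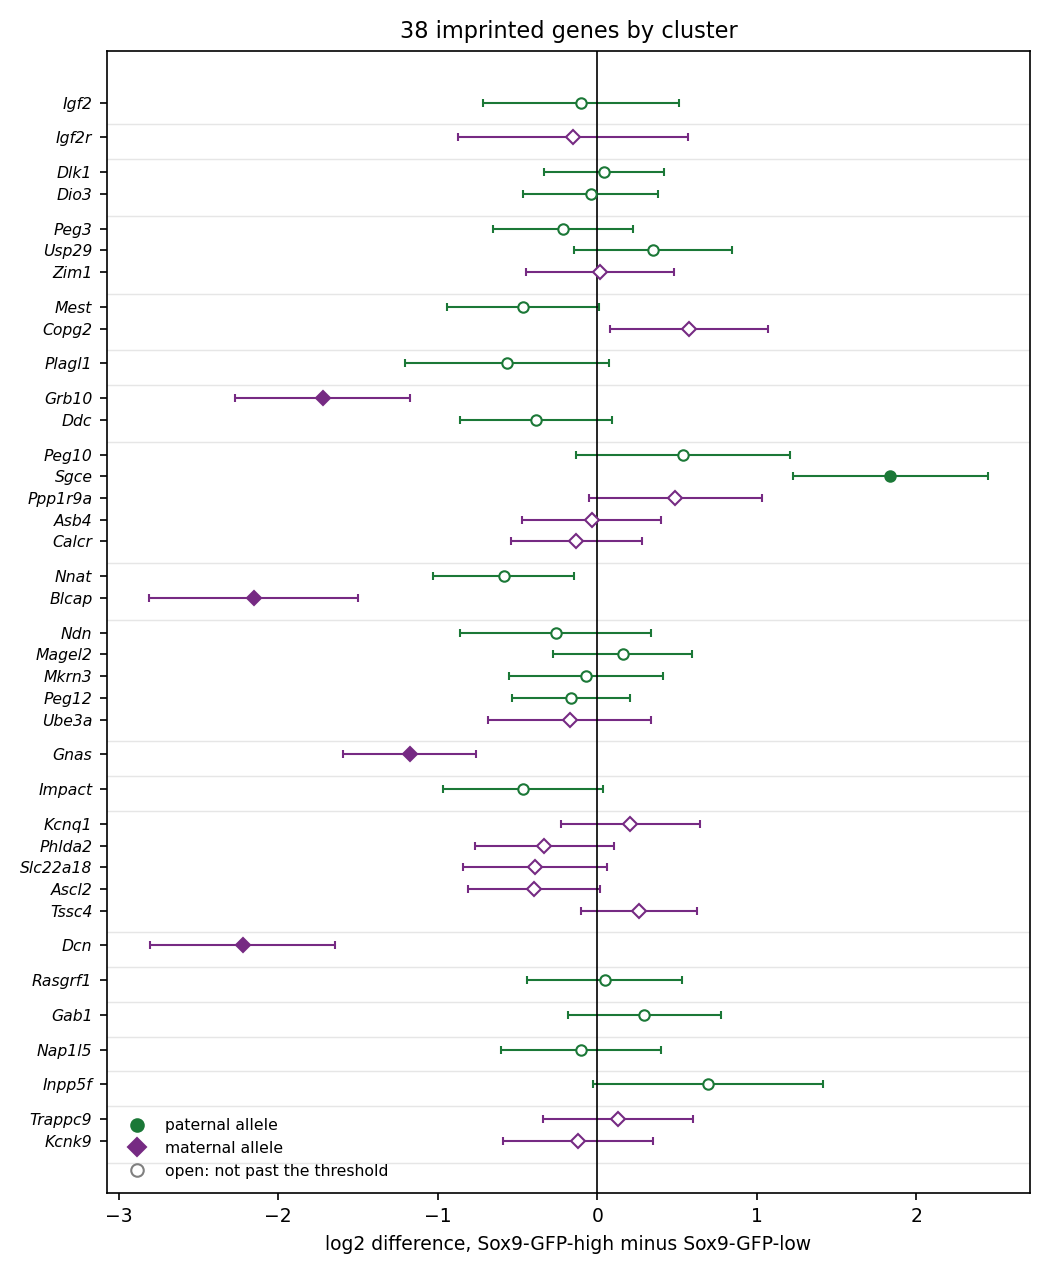
Difference between the sorts for each of the 38 measured imprinted genes, in log2 units on the horizontal axis, with bars for the 95% confidence interval of the limma fit. Rows are grouped by cluster, circles mark genes listed as paternally expressed and diamonds those listed as maternally expressed, and filled symbols passed the adjusted threshold: *Sgce* to the right at 1.84 and 4 maternally listed genes to the left, from -1.18 to -2.22.

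By listed allele, 20 paternally and 18 maternally expressed genes were measured. Among the paternal genes 1 was called higher and 0 lower, with a median difference of -0.09 and a range from -0.59 to 1.84. Among the maternal genes 0 were called higher and 4 lower, with a median of -0.14 and a range from -2.22 to 0.58. Over all probe sets, 4.00% were called higher and 3.20% lower. The 2 medians lay close together while the called genes of the 2 groups lay on opposite sides. The groups also differed in signal. By mean level, 10 of the 20 paternal and 6 of the 18 maternal genes were not above the receptor percentile in either sort. Above it in both sorts were 5 paternal and 11 maternal genes, so the counts of called genes do not compare like with like. This contrast rests on 5 genes of the first list and was not tested as a difference between alleles. A second list of imprinted genes, read below, had 4 of 29 called higher and 2 lower. That list was not split by allele, so the contrast was not checked there. *Grb10* is the only called maternal gene whose imprinting is known in most tissues; for *Blcap*, *Gnas* and *Dcn* it is known in particular tissues, and whether any of these genes is expressed from 1 allele in these cells was not measured.

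The 1 gene called higher lies in the *Peg10-Sgce* cluster, which holds paternally expressed *Peg10* and *Sgce* and maternally expressed genes on either side. *Sgce* encodes epsilon-sarcoglycan, a membrane protein best known from a movement disorder inherited through the father. Its values on arrays 1, 2 and 3 were 6.70, 5.82 and 6.62 in Sox9-GFP-high cells and 4.84, 4.12 and 4.67 in Sox9-GFP-low cells. Every high array lay above every low array, and of the low arrays only number 1 was above the receptor percentile. The difference was 1.84 ± 0.27 (SE), or 3.57-fold (95% CI 2.34 to 5.46), with a limma adjusted p of 0.00395.

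*Peg10*, a gene derived from a retrotransposon and needed for the placenta, starts next to *Sgce* and shares its control region. Its values were 4.57, 3.59 and 4.20 in the high sort and 3.48, 3.15 and 4.13 in the low sort. All 6 lay below the receptor percentile, and the ranges overlapped, with a difference of 0.54 ± 0.30 (SE; limma adjusted p = 0.369). The maternally listed members of the cluster did not pass either. *Ppp1r9a*, which encodes the actin-binding scaffold neurabin, had 6.08, 6.82 and 6.85 in the high sort and 6.21, 6.29 and 5.79 in the low sort, so that the groups overlapped (difference 0.49, adjusted p = 0.301). *Asb4*, a part of a ubiquitin ligase, had 3.34, 3.61 and 3.49 against 3.19, 3.75 and 3.60, and *Calcr*, the calcitonin receptor, had 2.85, 3.31 and 3.10 against 3.10, 3.37 and 3.20. Both stayed below the receptor percentile on every array, with differences of -0.04 and -0.13.

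The largest falls were in *Dcn* and *Blcap*. *Dcn* encodes decorin, a proteoglycan that binds collagen and growth factors in connective tissue, and is imprinted in the mouse placenta. It had 9.44, 9.95 and 8.93 in Sox9-GFP-high cells and 11.64, 11.92 and 11.42 in Sox9-GFP-low cells. Each high array lay below each low array, and the difference was -2.22 ± 0.26 (SE), a 4.67-fold lower level (95% CI 3.12 to 6.97; limma adjusted p = 0.00122). As decorin is made abundantly by fibroblasts, the fibroblast markers were read on the same arrays. Of 9 measured, 1 was called higher in Sox9-GFP-high cells (*Fbln1*, difference 1.07) and 0 lower. With the replicate block, *Postn* was also higher (2.45, adjusted p = 0.000965, against 0.0617 without it) and *Dpt* lower (-0.67, adjusted p = 0.0354, against 0.133 without it). The collagen genes *Col1a2* and *Col3a1* and the receptor gene *Pdgfrb* lay between 3.41 and 4.63 on all arrays, below the receptor percentile. The collagen gene *Col1a1*, at 5.24 to 5.72, and the proteoglycan gene *Lum*, at 4.93 to 5.56, lay above it on all arrays. By mean level, 3 of the 9 markers were above it in both sorts, 1 in the high sort alone and 5 in neither. The log2 of the summed fibroblast level was 10.90 to 12.31 in the high sort and 8.52 to 10.78 in the low sort, with *Postn* the brightest of the 9 on every array. Over the 9 markers the median level was 4.34 to 4.55 in the high sort and 4.27 to 4.51 in the low sort. The ranges of this median overlapped between the sorts, and the highest summed level, 12.31, was close to the highest value of *Postn* alone, 12.26. The part of other cells in the level of *Dcn* was not tested.

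*Blcap* encodes a small conserved protein, first named from bladder cancer, and *Nnat* lies within an intron of *Blcap*; in brain *Nnat* is expressed from the paternal and *Blcap* mainly from the maternal copy. *Blcap* had 9.47, 9.75 and 9.79 in the high sort and 11.07, 12.10 and 12.30 in the low sort. The groups did not overlap, and low array number 1 lay apart from the other low arrays, towards the high sort. The difference was -2.15 ± 0.29 (SE), or 4.45-fold lower (95% CI 2.83 to 7.01; limma adjusted p = 0.00261). *Nnat*, which encodes neuronatin, a small protein of the endoplasmic reticulum, had 4.65, 4.63 and 4.70 in the high sort and 5.61, 4.98 and 5.15 in the low sort. The high arrays lay close to the receptor percentile of their sort (4.68) and all below the low ones, and the difference of -0.59 ± 0.20 (SE) did not pass the test (adjusted p = 0.114, and 0.0802 with the replicate block).

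*Grb10* encodes an adaptor that binds the insulin and IGF1 receptors and damps their signals; it is expressed from the maternal copy in most tissues and from the paternal copy in neurons. Its arrays gave 6.08, 6.77 and 6.25 in Sox9-GFP-high cells and 7.66, 8.29 and 8.31 in Sox9-GFP-low cells. The highest of the high arrays was below the lowest of the low ones. The difference was -1.72 ± 0.25 (SE), a 3.29-fold lower level (95% CI 2.25 to 4.82; limma adjusted p = 0.00322). Its neighbour *Ddc*, the decarboxylase of dopamine and serotonin synthesis and paternally expressed in the heart, had 4.10, 3.66 and 3.84 in the high sort and 4.04, 4.63 and 4.08 in the low sort. All of these values were below the receptor percentile and the sorts overlapped (difference -0.39, adjusted p = 0.363).

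*Gnas* encodes the stimulatory G protein alpha subunit, which couples hormone receptors to cyclic AMP. Its locus starts transcripts from several promoters, some expressed from the maternal copy, some from the paternal copy and the main one from both in most tissues, and a single probe set cannot tell them apart. It had 11.09, 11.30 and 10.89 in the high sort and 12.20, 12.49 and 12.12 in the low sort. The arrays of each sort lay close together, with SDs of 0.207 and 0.195, and did not overlap. The difference was -1.18 ± 0.19 (SE), or 2.26-fold lower (95% CI 1.69 to 3.02; limma adjusted p = 0.00530).

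**Figure D2:**
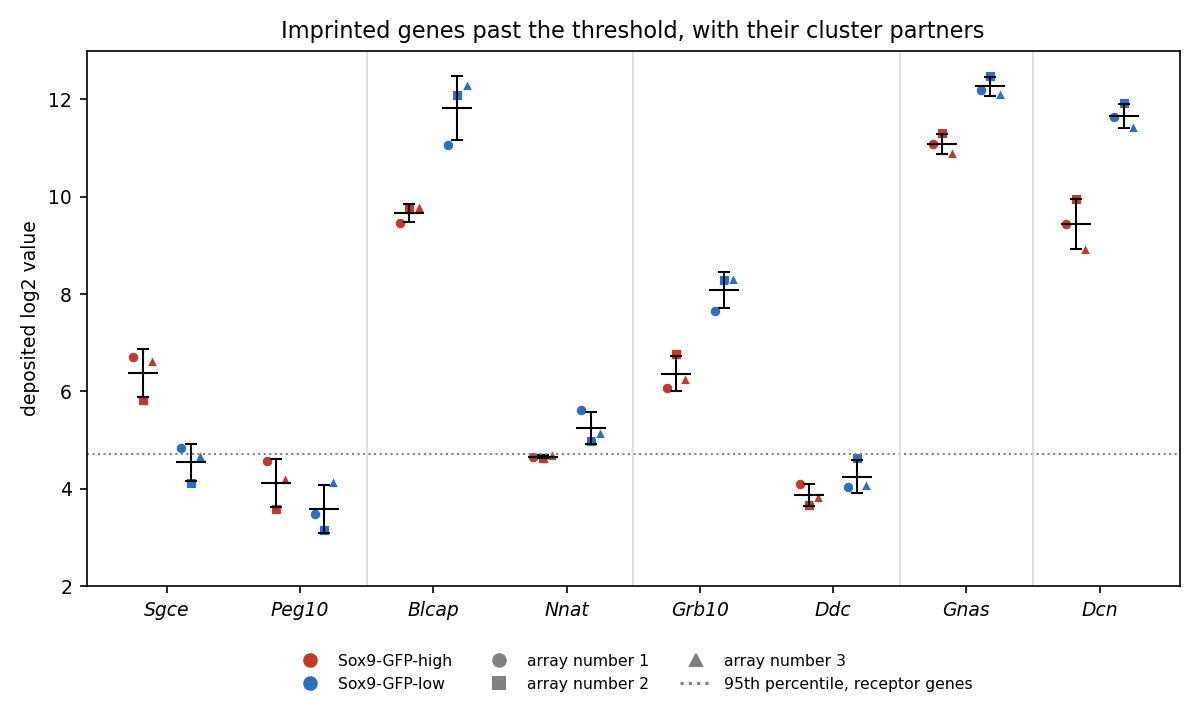
Deposited log2 values of the 5 called imprinted genes and their cluster partners, 1 point per array, with red for Sox9-GFP-high and blue for Sox9-GFP-low arrays, symbols for the array numbers, and the mean ± SD in black. The dotted line is the 95th percentile of the receptor probe sets (4.72), under which *Peg10* and *Ddc* lie on all 6 arrays; the values of different genes are not comparable with each other.

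Starts of called genes are shown to give the sequence that lies around them. From the RefSeq annotation of GRCm38.p6, each window holds 250 bases before and 50 after a transcript start, read 5′ to 3′ on the gene's strand, and 33 of the 42 listed genes have at least 1 window. The windows below belong to *Blcap* (chr2:157566312-157566611, minus strand), *Gnas* (chr2:174329756-174330055, plus strand, the one richest in CG of its 4 windows) and *Grb10* (chr11:12037371-12037670, minus strand, the richer of its 2), and capitals mark every CG, the dinucleotide at which imprinting control regions are methylated.
Blcap: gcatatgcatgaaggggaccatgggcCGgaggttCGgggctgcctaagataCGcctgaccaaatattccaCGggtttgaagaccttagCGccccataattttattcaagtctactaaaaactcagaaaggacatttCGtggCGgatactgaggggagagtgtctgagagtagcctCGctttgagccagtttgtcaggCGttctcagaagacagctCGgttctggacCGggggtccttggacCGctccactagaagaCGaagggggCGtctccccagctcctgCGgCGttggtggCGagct
Gnas: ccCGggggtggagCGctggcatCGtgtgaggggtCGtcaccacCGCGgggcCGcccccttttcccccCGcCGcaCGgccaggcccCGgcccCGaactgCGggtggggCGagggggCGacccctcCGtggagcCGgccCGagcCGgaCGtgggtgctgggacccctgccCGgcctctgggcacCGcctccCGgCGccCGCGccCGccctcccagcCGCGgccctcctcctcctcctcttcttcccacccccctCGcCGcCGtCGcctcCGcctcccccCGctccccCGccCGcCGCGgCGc
Grb10: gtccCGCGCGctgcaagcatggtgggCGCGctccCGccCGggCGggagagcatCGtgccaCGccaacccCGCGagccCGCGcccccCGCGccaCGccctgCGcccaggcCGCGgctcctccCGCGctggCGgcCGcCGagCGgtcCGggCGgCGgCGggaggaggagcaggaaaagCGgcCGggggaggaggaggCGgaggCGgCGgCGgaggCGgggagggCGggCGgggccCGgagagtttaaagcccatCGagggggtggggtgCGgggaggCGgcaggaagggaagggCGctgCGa
The *Blcap* window holds 17 CG, the *Gnas* window 40 and the *Grb10* window 45. Of all 32851 windows, 31.4% have at least as many as *Blcap*, 3.91% as *Gnas* and 1.93% as *Grb10*, so the 3 windows differed in how rich in CG they were. The letters TGCCGC, or GCGGCA on the other strand, which are the core bound by the imprint-protecting factor ZFP57, occur once in the *Grb10* window and in neither of the others. They are present in 23.5% of the 51 windows of imprinted genes and in 11.6% of all windows. The SOX core ATTGTT, or AACAAT, is in none of the 3 printed windows, in 2 of the other *Gnas* windows and in 15.7% of the imprinted-gene windows and 10.7% of all. Overlapping windows were counted separately in these shares. Among the imprinted genes, 2 *Mest* windows that share 297 bases both hold TGCCGC, and the 2 *Gnas* windows with ATTGTT share 281 bases. The overlapping *Gab1* windows, and those of *Peg3* and *Usp29*, hold neither. The median of the CG-richest window per gene was 17 over the imprinted genes and 8 over all genes. TGCCGC itself holds a CG, and its shares were not compared between windows equally rich in CG.

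Of the 33 genes that were not called, *Copg2* and *Nnat* were the 2 whose arrays did not overlap and whose difference exceeded 0.5. *Copg2* encodes a subunit of the COPI vesicle coat and lies beside *Mest*. Its values were 8.79, 9.14 and 8.41 in the high sort and 8.29, 8.39 and 7.94 in the low sort. High array number 3 lay only just above low array number 2, and the difference of 0.58 ± 0.22 (SE) had a limma adjusted p of 0.167 (0.0589 with the replicate block). *Mest*, the paternally expressed partner, was 4.34 ± 0.31 in the high sort and 4.81 ± 0.25 in the low sort (SD, n = 3 each). Its difference of -0.47 did not pass the test (adjusted p = 0.254). Another 5 genes that were not called had separate arrays: *Tssc4* higher, and *Peg12*, *Phlda2*, *Slc22a18* and *Ascl2* lower, with differences from -0.40 to 0.26.

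The remaining clusters held no called gene. *Igf2*, a growth factor of the fetus, was 4.95 ± 0.27 in the high sort and 5.05 ± 0.56 in the low sort, and *Igf2r*, the receptor that takes up IGF2 for breakdown, was 9.42 ± 0.57 and 9.57 ± 0.52 (SD, n = 3 each). Their differences were -0.10 and -0.15, and the 95% intervals reached from -0.72 to 0.52 and from -0.87 to 0.57. *H19* itself was not analysed here. A probe set named for *Mir675*, whose hairpin lies in the *H19* transcript, ranged from 4.67 to 6.36 in the high sort and from 4.49 to 6.86 in the low sort, so that the high arrays lay within the range of the low ones (limma adjusted p = 0.848). In the *Dlk1-Dio3* cluster *Dlk1*, which restrains fat cell differentiation, and *Dio3*, which inactivates thyroid hormone, stayed below the receptor percentile on all arrays. In the *Peg3* cluster the zinc finger gene *Peg3* was 4.82 ± 0.27 and 5.04 ± 0.18, whereas *Usp29* and *Zim1* were below the percentile.

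In the *Snrpn-Ube3a* cluster, known from Prader-Willi and Angelman syndromes, the paternally expressed *Ndn*, *Magel2*, *Mkrn3* and *Peg12* had means below the receptor percentile in both sorts. The ubiquitin ligase gene *Ube3a* was 8.38 ± 0.39 in the high sort and 8.56 ± 0.25 in the low sort, with a difference of -0.17 (95% CI -0.68 to 0.34). In the *Kcnq1* cluster *Tssc4* was 10.21 ± 0.10 and 9.95 ± 0.08 (SD, n = 3 each), and its difference of 0.26 was not called (adjusted p = 0.433). *Phlda2*, which limits placental growth, was 4.45 ± 0.17 and 4.78 ± 0.27, and the transporter gene *Slc22a18* was 4.75 ± 0.32 and 5.14 ± 0.16. *Kcnq1*, a potassium channel gene, and *Ascl2*, a factor of trophoblast and intestinal stem cells, were below the percentile in both sorts.

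Of the single genes, *Gab1*, a docking protein of growth factor receptors that is paternally expressed in placenta, was 13.22 ± 0.37 in the high sort and 12.92 ± 0.17 in the low sort. *Plagl1*, a zinc finger transcription factor, was 9.82 ± 0.05 and 10.39 ± 0.65, and its difference of -0.56 rested on low arrays that ranged from 9.75 to 11.06. *Impact*, an inhibitor of the kinase GCN2, was 7.36 ± 0.23 and 7.82 ± 0.37, and *Trappc9*, a part of a trafficking complex, 7.37 ± 0.15 and 7.24 ± 0.35. *Inpp5f*, a phosphoinositide phosphatase gene, was 5.38 ± 0.57 and 4.68 ± 0.53. It had the largest difference among genes that were not called, 0.70 (95% CI -0.03 to 1.42), with overlapping arrays. *Rasgrf1*, an exchange factor for Ras, lay at 4.68 ± 0.25 and 4.63 ± 0.33, and *Nap1l5* and *Kcnk9* lay below the percentile in both sorts.

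In total 16 imprinted genes lay at or below the receptor percentile in both sorts, with values from 2.36 to 4.63, and their differences ran from -0.40 to 0.54. Absence of a difference cannot be told from lack of signal in these genes. Another 16 lay above it in both sorts, 3 in the high sort alone (*Sgce*, *Rasgrf1* and *Inpp5f*) and 3 in the low sort alone (*Mest*, *Nnat* and *Phlda2*). All 5 called genes were above it in at least 1 sort. Of the 33 genes not called, 27 had a 95% interval that lay within 1 log2 unit of 0, so that a change of more than 1 unit was outside the interval. The intervals of *Inpp5f*, *Plagl1*, *Peg10*, *Copg2*, *Ppp1r9a* and *Nnat* reached further. The 27 include all of the 16 dim genes except *Peg10*, and for those a narrow interval of the array value does not bound a change in RNA.

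Genes beside the listed imprinted ones were read in chromosome order, with 3 named neighbours on each side and those in between. This rule was chosen after values had been seen. A neighbour here is a gene off the first list, and not always a gene without known imprinting. Several are on the second list of imprinted genes described below, among them *Pon3*, *Atp10a*, *Casd1* and *Cobl*. None of 6 neighbours of *Grb10* and *Ddc*, and none of 6 neighbours of *Dcn*, was called, and *Lum*, a proteoglycan gene beside *Dcn*, differed by 0.12. As 4.00% of all probe sets were called higher and 3.20% lower, 0 of 6 is near the background share. Such a count does not show that a change was confined to the listed gene. Of 15 neighbours in the *Peg10-Sgce* cluster, 1 was called: *Pon3*, a lactonase gene that lies beyond *Ppp1r9a*, was higher by 1.70. *Hepacam2*, not called at -0.96 (adjusted p = 0.240), was lower with the replicate block (0.00616), the opposite direction to *Sgce*. Between *Sgce* and *Pon3* the array names *Peg10*, *Ppp1r9a* and *Pon1*, which did not pass, and on the other side of *Sgce* neither *Casd1* nor *Col1a2* passed. Around *Blcap*, 0 of 6 neighbours were called, and *Ctnnbl1*, not called at -0.66 (adjusted p = 0.0660), was lower with the replicate block (0.0329). Around *Gnas*, 0 of 6 were called, and *Stx16* and *Npepl1*, not called at -0.70 and -0.69 (adjusted p = 0.0537 and 0.215), were lower with the replicate block (0.0346 and 0.0491). The *Snrpn-Ube3a* neighbourhood held 1 called gene of 7, *Atp10a*, which encodes a lipid flippase and was higher by 2.38, while *Ube3a* next to it was not called. In the *Kcnq1* neighbourhood 1 gene of 10 was called, *Nap1l4*, higher by 0.73, and it is also on the second list.

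**Figure D3:**
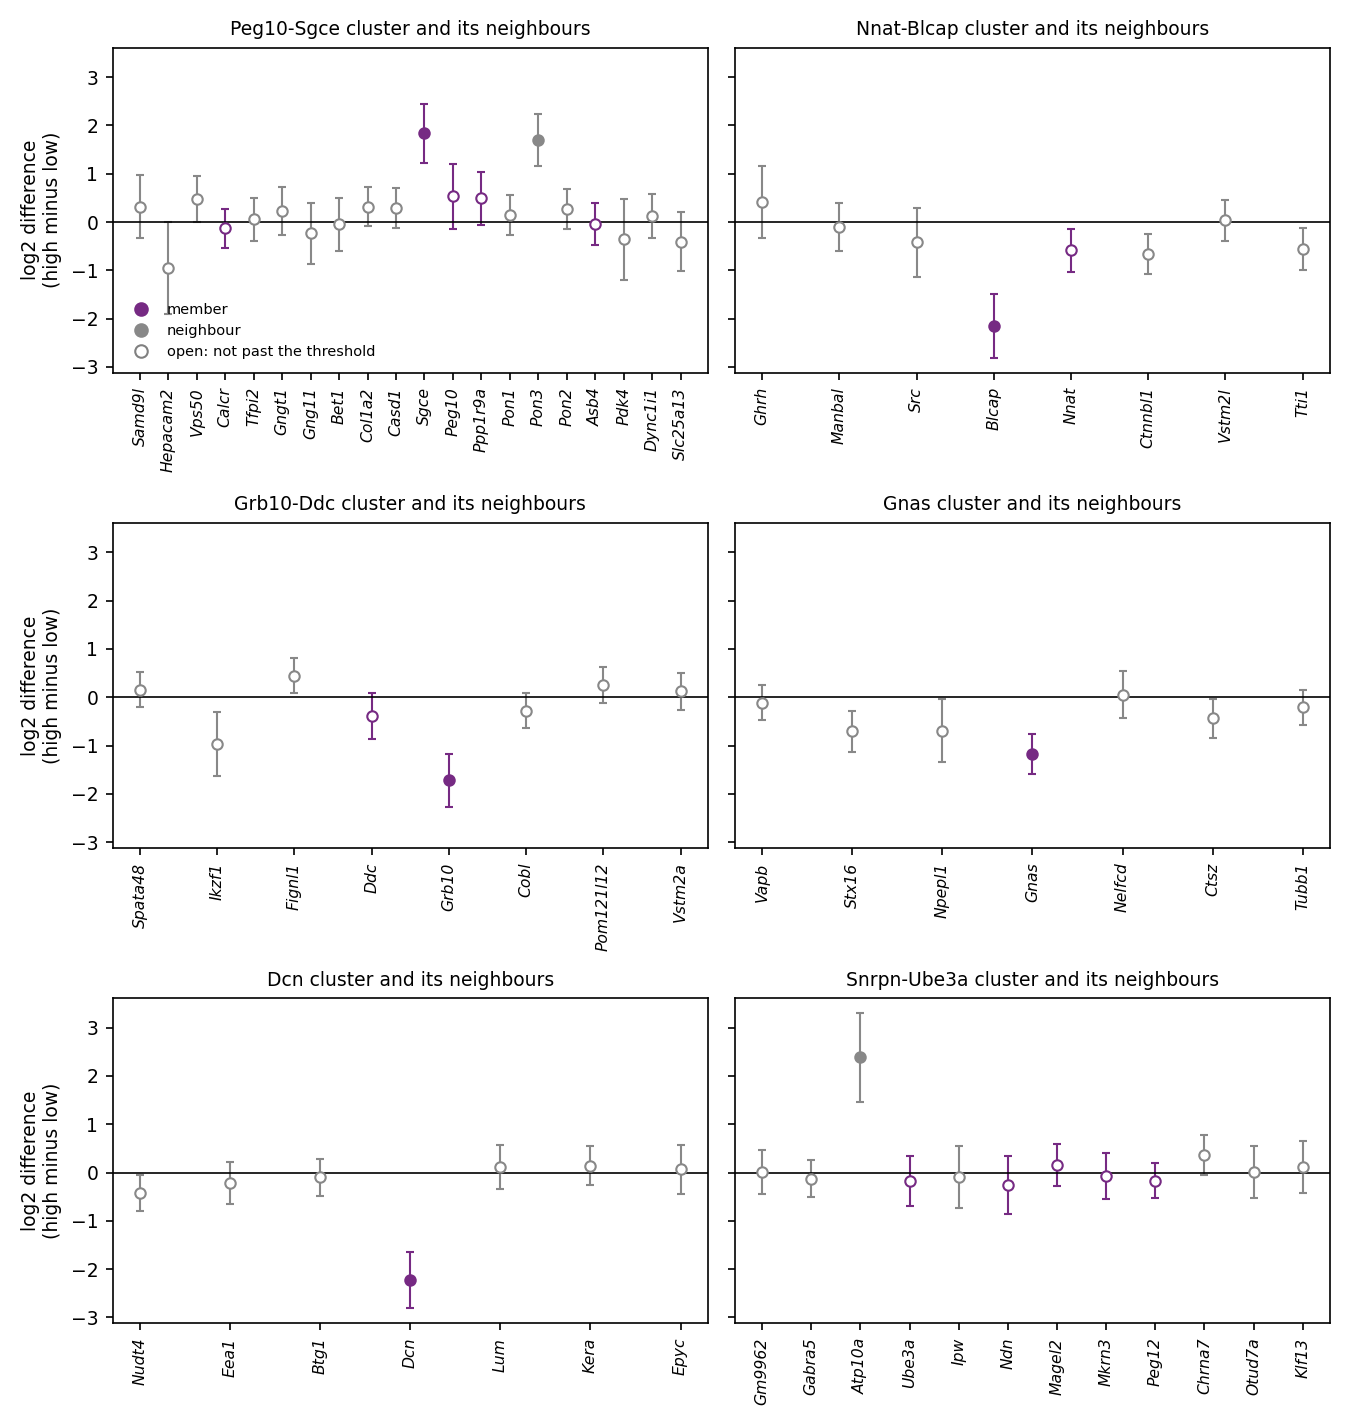
Difference between the sorts (log2, with 95% confidence intervals) for listed imprinted genes and their neighbours in chromosome order, 1 panel per cluster. Members of the first list are in purple and neighbours in grey, filled where past the adjusted threshold without the block. Some neighbours, *Pon3* among them, are on the second list of imprinted genes. In the panels of *Grb10*, *Gnas*, *Dcn* and *Blcap* the called member is the sole filled symbol, and *Sgce* and *Pon3* are the 2 filled symbols of theirs.

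Other imprinted genes from a second list behaved in both directions. Of 37 named, 29 had a probe set; 4 were called higher and 2 lower, beside 4.00% and 3.20% of all probe sets. *Dlx5*, a homeobox factor of bone and craniofacial development, had the largest difference, 3.26 (limma adjusted p = 0.00342), with 11.97, 11.87 and 12.11 in the high sort and 8.94, 7.42 and 9.82 in the low sort. Without low array number 2, the lowest, its difference was 2.60 (adjusted p = 0.00211). *Atp10a*, *Pon3* and *Nap1l4*, a histone chaperone gene, were higher by 2.38, 1.70 and 0.73 (adjusted p = 0.00801, 0.00305 and 0.0375), the last called in 1 of 9 fits that left out arrays. *Ano1*, a chloride channel gene, was lower by 2.31 and *H13*, the signal peptide peptidase gene, by 1.15 (adjusted p = 0.000278 and 0.00744). The remaining 23 were not called, among them *Cdkn1c*, a cell cycle inhibitor gene (difference -0.29), and *Kcnq1ot1*, the long non-coding RNA of the *Kcnq1* domain (0.13). The median over the 29 was 0.06. For several of these genes imprinting is debated or limited to certain tissues, and allelic expression was not measured.

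Partners of *Grb10* and *Igf2* in insulin-like growth factor signalling were read next. Of 16 listed, 14 were measured, with 0 higher and 2 lower beside the same shares of all probe sets, and a median difference of -0.20. *Irs1*, the docking protein through which the insulin and IGF1 receptors signal, had 8.01, 7.83 and 7.90 in the high sort and 9.93, 10.45 and 10.96 in the low sort. The high arrays lay together and far from the low ones, with a difference of -2.54 ± 0.25 (SE; limma adjusted p = 0.000554). *Igfbp5*, a secreted binding protein for these growth factors and known from mammary involution, had 14.82, 14.02 and 13.48 against 16.26, 16.36 and 15.65, a difference of -1.98 ± 0.32 (adjusted p = 0.00583). *Irs1*, *Igfbp5* and *Grb10* were lower in the same sort. The receptor genes *Igf1r* (difference 0.11) and *Insr* (-0.27) and the second docking protein gene *Irs2* (-0.26) did not pass. *Igfbp7*, not called at 0.75 (adjusted p = 0.244), was higher with the replicate block (0.0458).

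**Figure D4:**
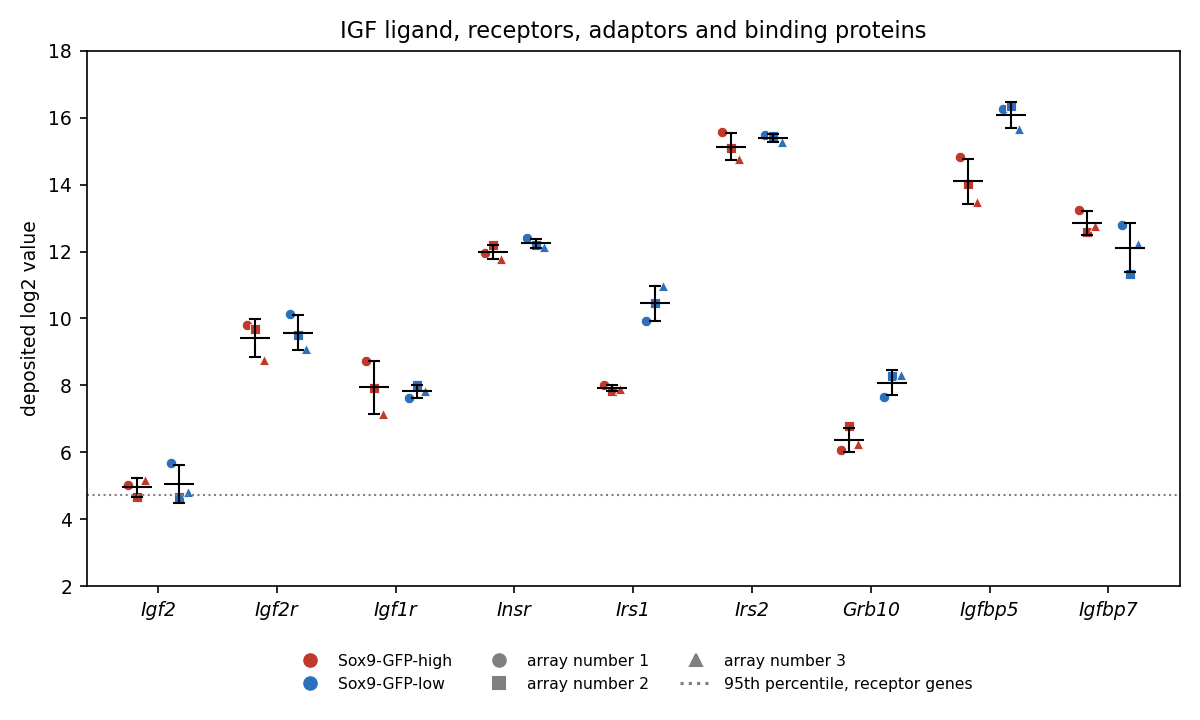
Deposited log2 values of *Igf2*, its receptor *Igf2r*, the receptors *Igf1r* and *Insr*, the adaptors *Irs1*, *Irs2* and *Grb10*, and 2 binding proteins, 1 point per array with mean ± SD in black. *Irs1*, *Grb10* and *Igfbp5* are lower on every Sox9-GFP-high array than on any Sox9-GFP-low array, and *Igf2* lies near the dotted receptor percentile (4.72) in both sorts.

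Factors that keep imprints were the last group. All 18 listed genes had a probe set, with 1 called higher and 1 lower, beside 4.00% and 3.20% of all probe sets. Both counts are near the background share. The median difference was 0.27. *Uhrf1*, which guides the maintenance methyltransferase to newly copied DNA, had 13.40, 12.98 and 13.09 in the high sort and 12.60, 12.36 and 12.25 in the low sort. Its difference was 0.75 ± 0.19 (SE; limma adjusted p = 0.0398), and it was called in 0 of 9 fits that left out arrays. *Ehmt1*, a histone H3 lysine methyltransferase gene, had 9.55, 10.27 and 9.52 against 11.18, 11.15 and 10.78, lower by 1.25 (adjusted p = 0.0114). *Tet3*, which oxidises methylated cytosine, was not called at -0.78 (adjusted p = 0.0670) and was lower with the replicate block (0.0490). *Dnmt1*, the maintenance methyltransferase gene itself (difference 0.26), and *Trim28* (0.60), the partner of ZFP57, were not called, and *Zfp57* lay below the receptor percentile in both sorts.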

How the data were processed

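RNA from 6 sorts was hybridised to biotin-labelled one-colour arrays, 3 per group, each labelled by sort and array number. The values deposited by the authors are on the log2 scale, with a column for each array; no source used here states how they were background-corrected or normalized. Precision is limited by the number of arrays. The array's gene table names 19572 probe sets by a single symbol, 0 by several and leaves 2634 unnamed. Every probe set was tested with limma 3.58.1 (R 4.3.3; lmFit, then eBayes; two-sided; unblocked, since the methods describe an unpaired test) at 0.05 after Benjamini-Hochberg adjustment. The code was tested on simulated data. A gene was represented by its brightest probe set. Same-numbered arrays deviated together (r = 0.236, 0.232 and 0.218, against at most -0.06 for other pairs). Deviations were taken from each sort's mean, so a positive r for same-numbered arrays in itself pushes the other pairs negative. The main fit did not use the numbers as pairs, and values from a fit blocked by number are given where they change a call. Among the listed imprinted genes, those given array by array are called genes, genes with separate arrays and a difference over 0.5, and members of clusters with a called gene. Alternatives were quantile normalization, centring, filters, array weights, another prior, the methods' t-test and leaving out arrays. Members and lists were chosen with earlier results of these data known.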

Additional observations from a re-analysis of the deposited data

How the results depend on the processing

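None of the 5 called imprinted genes changed direction under any alternative run. The counts of 1 higher and 4 lower stood under the replicate block, quantile normalization, centring on array medians, both filters, array weights and the trended robust prior. With the methods' t-test after Benjamini-Hochberg, 0 imprinted genes were higher and 0 lower, against 1 higher and 2 lower over all probe sets; 7 imprinted genes and 3765 probe sets had an unadjusted p below 0.05, as did 7 imprinted genes with limma. Over all probe sets the replicate block gave 1404 higher and 1108 lower against 888 and 711 without it. The block changed no call of an imprinted gene on the list of 42. Leaving out arrays gave 0 to 1 imprinted genes higher and 2 to 4 lower, and 231 to 672 probe sets higher and 316 to 563 lower. The lowest counts came without replicate 3 of both sorts, where *Sgce*, *Grb10* and *Gnas* missed the threshold (adjusted p = 0.0543, 0.0597 and 0.0594) and *Blcap* and *Dcn* kept their calls. *Blcap* and *Dcn* were called in 9 of 9 fits that left out arrays, and *Sgce*, *Grb10* and *Gnas* in 8 of 9. Outside the list of 42, calls missed the threshold without replicate 1 of both sorts for *Ehmt1*, *H13* and *Atp10a* (adjusted p = 0.109, 0.0539 and 0.0614), without replicate 2 of both for *Igfbp5* and *Fbln1* (0.0716 and 0.0534), without replicate 3 of both for *Ehmt1*, *H13* and *Fbln1* (0.0783, 0.0663 and 0.0940), for *Krt17* in 4 such fits (without Sox9-GFP-high replicate 1 or replicate 3 alone, 0.108 and 0.118), for *Nap1l4* in 8 of 9 (up to 0.296) and for *Uhrf1* in 9 of 9 (up to 0.244). Filters for dim probe sets left 24 and 22 of the 38. With 3 arrays a sort, the median residual SD of the imprinted genes was 0.284, against 0.244 over all probe sets, and low-signal genes may differ without being measured. Beside the replicate block, *Stx16* also passed with quantile normalization, both filters and array weights, *Ctnnbl1* with the trended robust prior, *Postn* with both filters, and *Tet3* with quantile normalization and array weights.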
